A study of Mus musculus with 24 samples.

Results

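A group of 10 genes known from the fibroblasts of the meninges, *Col1a1*, *Col1a2*, *Col3a1*, *Dcn*, *Lum*, *Bgn*, *Igf2*, *Slc6a13*, *Ptgds* and *Aldh1a2*, was followed in mRNA libraries of the mouse nucleus accumbens (NAc). The genes were chosen by name, with earlier results of these data known but with no threshold on a measured value, and all 10 were found among the 38293 genes listed. Of the listed genes, 18593 were tested, those with over 5 reads in 80% or more of the libraries of some group, and all 10 meningeal fibroblast genes were among them. The 12 libraries came from C57BL/6J mice, 3 each from nonstressed males (NSM), stressed males (SM), nonstressed females (NSF) and stressed females (SF). Stressed mice had gone through Subchronic Variable Stress (SCVS), a schedule of 6 days with changing stressors, and their NAc was taken 24 h after the last one, whereas nonstressed mice received no stressor. The age of the mice was 9 weeks by the labels and 8 weeks by the study's methods, all females were in estrus or proestrus, and no group is described as carrying an altered allele. Every library was a pool of 10 NAc punches from 5 mice, so that replicates are pools, 3 per group, and single mice are not seen. The sources used here do not say whether meninges were removed from the punches.

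Meningeal fibroblasts line the surface of the brain and follow its larger vessels inward. They secrete fibrillar collagens and the small leucine-rich proteoglycans that bind them, and they release signals to the brain below, among them retinoic acid and insulin-like growth factors. Several of the genes are not private to these cells: *Ptgds* is also a gene of oligodendrocytes and of the choroid plexus, *Igf2* is also made by the choroid plexus, and collagen genes are used by fibroblasts around vessels.

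*Col1a1* and *Col1a2* encode the 2 chains of type I collagen and *Col3a1* the chain of type III collagen. In the genome build NCBIM37, *Col1a1* (ENSMUSG00000001506) lies on chromosome 11 from 94797538 to 94814356, *Col1a2* (ENSMUSG00000029661) on chromosome 6 from 4454814 to 4491543 and *Col3a1* (ENSMUSG00000026043) on chromosome 1 from 45368383 to 45406551. The proteoglycan genes are *Dcn* (decorin) on chromosome 10 from 96942245 to 96980777, *Lum* (lumican) on the same chromosome from 97028135 to 97035337, and *Bgn* (biglycan) on chromosome X from 70728941 to 70741272. The growth factor gene *Igf2* lies on chromosome 7 from 149836673 to 149852721, *Slc6a13*, which encodes a GABA transporter, on chromosome 6 from 121250245 to 121287751, *Ptgds*, which encodes an enzyme that makes prostaglandin D2, on chromosome 2 from 25322229 to 25325566, and *Aldh1a2*, which encodes an enzyme that makes retinoic acid, on chromosome 9 from 71063596 to 71144050. *Igf2* and *Ptgds* are on the minus strand, and the others are on the plus strand. All 10 are annotated as protein coding, and values are reads on the exons of the whole gene. Since the strand setting of the counting is not given in the sources used here, reads in the 109 exonic bases that *Col1a1* shares with *Gm17329* on the opposite strand (1.66% of its exonic bases) and in the 98 bases that *Igf2* shares with *Igf2as* (1.78%) could come from either gene.

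The promoters of *Col1a2* and *Ptgds*, the 2 genes that passed the thresholds in males in the comparison given further on, are shown because these genes moved in opposite directions. Whether the motifs have a part in this was not tested. Both are RefSeq sequences of GRCm38.p6, 250 bases before to 50 bases after the gene's start, read 5′ to 3′ on the gene's strand, and capitals mark the CCAAT box, the GC box motif GGGCGG and the TATA box motif TATAAA on either strand.
*Col1a2* promoter (chr6:4505368-4505667, plus strand): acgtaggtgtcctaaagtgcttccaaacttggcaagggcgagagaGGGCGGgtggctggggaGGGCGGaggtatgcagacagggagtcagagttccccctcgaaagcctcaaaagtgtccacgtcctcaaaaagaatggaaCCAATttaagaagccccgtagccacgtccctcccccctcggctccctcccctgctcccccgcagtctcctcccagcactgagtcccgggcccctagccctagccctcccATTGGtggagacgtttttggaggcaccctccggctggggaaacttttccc
*Ptgds* promoter (chr2:25469700-25469999, minus strand): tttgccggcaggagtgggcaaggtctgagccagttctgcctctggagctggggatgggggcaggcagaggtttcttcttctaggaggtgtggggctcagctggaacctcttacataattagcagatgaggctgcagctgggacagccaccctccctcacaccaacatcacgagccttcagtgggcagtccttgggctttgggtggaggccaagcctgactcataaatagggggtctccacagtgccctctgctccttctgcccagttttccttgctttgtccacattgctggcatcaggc
The *Col1a2* window held 2 matches to CCAAT, 1 of them on the opposite strand, and 2 to GGGCGG, whereas the *Ptgds* window held none of the 3 motifs. Of the 32851 mouse promoters of this length in the same table, 37.4% held CCAAT, 35.7% GGGCGG and 13.6% TATAAA. The hexamer CANNTG, which reads the same on both strands, was found 3 times in the *Ptgds* window and not in that of *Col1a2*, and 72.3% of all promoters held it. Of the 10 genes, 7 were found in the promoter table. Windows of genes that did not pass in males held such motifs too. That of *Bgn* had 3 matches to GGGCGG and that of *Aldh1a2* 1 to CCAAT, whereas that of *Col3a1* had neither.

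Libraries held 41076780 to 60867747 reads on genes. Values are given as CPM, read counts scaled to a common library total with edgeR's TMM factors, and their SD is taken over the 3 libraries of a group. Markers of other cell types were present in all libraries. The sum over 10 markers of striatal projection neurons, the main neurons of the NAc, lay between 4449 and 5641 CPM. One library stood apart: NSM1 had 66.1 CPM of the choroid plexus gene *Ttr*, against 0.487 to 2.62 CPM in the other 11 libraries. Sums over 8 markers of cortical glutamatergic neurons ranged from 135 to 221 CPM in NSM, 250 to 416 in SM, 356 to 661 in NSF and 310 to 527 in SF. A large part of each sum was *Nrgn*, with 118 to 198 CPM in NSM, 200 to 217 in SM, 252 to 333 in NSF and 263 to 411 in SF. Another of the 8, *Slc17a7*, had a different order of groups, with 4.02 to 16.4 CPM in NSM, 39.5 to 162 in SM, 16.4 to 297 in NSF and 34.5 to 93.2 in SF. Sums over 7 red blood cell genes ranged from 21.9 to 27.5 CPM in NSM, 38.6 to 47.3 in SM, 29.9 to 39.0 in NSF and 28.8 to 32.0 in SF. A further list held 60 meningeal fibroblast and arachnoid genes, with 59 genes listed, 52 tested and a sum of 373 to 442 CPM in each library. None of the 59 was without reads in all libraries, but 18 had a mean under 1 CPM. Much of the sum came from a few genes, such as *Pdgfra*, *Lamb1* and *Itih5* with means of 72.8, 63.2 and 41.7 CPM in NSM, named here after their values were seen. Whether these reads came from meningeal cells was not tested.

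Levels of the 10 genes spanned a wide range. *Ptgds* alone made up 58.2% to 70.6% of their summed CPM, which lay between 123 and 169 CPM. To compare levels between genes, CPM were divided by the length in kb of the longest coding transcript. Reads were counted over all exons, which are longer by unlike amounts. *Col1a2* has 12145 exonic bases against 5347 in that transcript, *Bgn* 3563 against 2377 and *Dcn* 1937 against 1758. The order of genes with near levels therefore depends on the length used, and no other length was tried. *Ptgds* had the highest level, with a mean of 111 CPM per kb over all libraries (range 79.7 to 128), followed by *Igf2* with 5.03 (4.20 to 5.81), *Bgn* with 3.39 (2.75 to 3.85) and *Dcn* with 2.08 CPM per kb (1.66 to 2.40). With this length, these steps did not overlap over the 12 libraries. Below them, *Col1a2* had 1.85 CPM per kb (1.20 to 2.38), which overlapped with *Dcn* above and with *Slc6a13* below (1.08, range 0.849 to 1.44). *Aldh1a2* (0.431), *Col1a1* (0.431), *Col3a1* (0.316) and *Lum* (0.283 CPM per kb) formed the lowest group, and their ranges overlapped each other. Reads were few for some of these: *Lum* had 13 to 38 reads per library, *Aldh1a2* 33 to 66 and *Col3a1* 66 to 121, whereas *Ptgds* had 3640 to 6034.

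**Figure D1:**
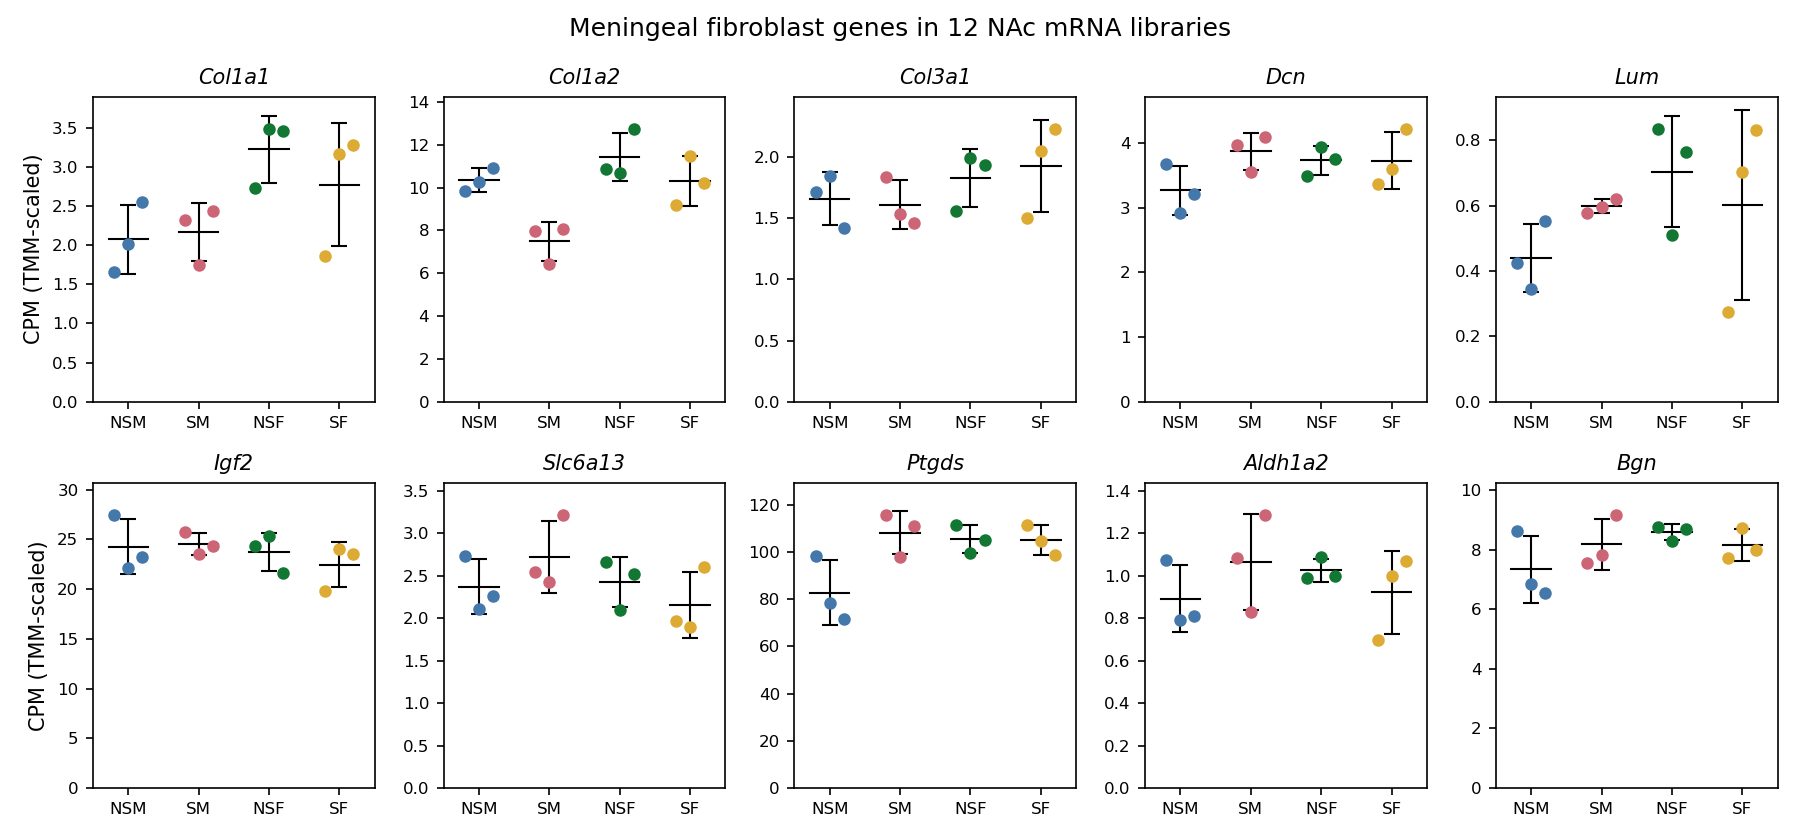
TMM-scaled CPM (y axis, from 0) of the 10 meningeal fibroblast genes in the 4 groups (x axis, 3 libraries each), with each point a library, the line the group mean and the bar the SD. The 3 SM libraries of *Col1a2* (6.42 to 8.04 CPM) lie below the other 9 (9.17 to 12.7 CPM), and 2 NSM libraries of *Ptgds* (71.8 and 78.5 CPM) lie below the other 10 (98.0 to 115 CPM).

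The effect of SCVS in males was asked by comparing SM with NSM. A gene was taken as changed, or called, by the study's thresholds, an unadjusted p under 0.05 together with at least a 1.3-fold difference, with p from limma fitted to all 12 libraries. A value after ± is a standard error (SE) for log2 differences and an SD for CPM. Of the 10 genes, 1 fell, *Col1a2*, and 1 rose, *Ptgds*, and both also had an adjusted p under 0.05. Among all tested genes 6.44% were called, 2.36% as higher and 4.08% as lower, and 3.32% had an adjusted p under 0.05. Fold changes were positive for 8 genes and negative for 2, with a median log2 fold change of 0.17, against -0.01 over all tested genes. In bulk tissue, fewer cells of a type and less RNA per cell cannot be told apart.

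*Col1a2* had 9.85, 10.3 and 10.9 CPM in the NSM libraries and 7.98, 6.42 and 8.04 CPM in the SM libraries. All 3 SM libraries were below all 3 NSM libraries, and below every female library as well. The mean fell from 10.3 ± 0.544 to 7.48 ± 0.918 CPM (SD, n = 3 libraries), a log2 fold change of -0.48 ± 0.11 (SE, adjusted p = 0.0365, limma; 95% limits -0.72 to -0.24). When 1 of the 12 libraries was dropped, values lay between -0.53 and -0.36, and without SM2 the value was -0.36, under the fold threshold (adjusted p = 0.185, limma).

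Neither of the other fibrillar collagen genes was called in males. *Col1a1*, whose product pairs with that of *Col1a2* in the type I triple helix, had 1.66, 2.01 and 2.54 CPM in NSM and 2.32, 1.74 and 2.44 CPM in SM. The groups overlapped, with a log2 fold change of 0.07 ± 0.24 (SE) and 95% limits of -0.44 to 0.58, which overlap those of *Col1a2*. *Col3a1* had 1.71, 1.85 and 1.42 CPM in NSM and 1.84, 1.53 and 1.46 CPM in SM, a log2 fold change of -0.05 ± 0.18 (SE, 95% limits -0.44 to 0.34). Per kb, the ratio of *Col1a1* to *Col1a2* was 0.152, 0.177 and 0.210 in NSM and 0.262, 0.245 and 0.273 in SM. It was thus higher in each SM than in each NSM library (exact permutation test, two-sided, p = 0.1, the smallest that 3 against 3 libraries allow). The NSF libraries, from 0.226 to 0.294, were also all above NSM (again p = 0.1 by the exact test), and SF spread over both, from 0.183 to 0.289, so that the low group in this ratio was NSM.

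*Ptgds* had 98.2, 78.5 and 71.8 CPM in NSM and 115, 98.0 and 111 CPM in SM. NSM1, the library with high *Ttr*, was the highest of its group and lay just above SM2, so the groups overlapped. The mean rose from 82.8 ± 13.7 to 108 ± 9.07 CPM (SD, n = 3 libraries), a log2 fold change of 0.39 ± 0.10 (SE, adjusted p = 0.0455, limma). Without NSM1 it was 0.53 (adjusted p = 0.00910, limma). The fold of 1.31 was close to the threshold of 1.3, and the call was lost without any 1 of NSM2, NSM3, SM1 or SM3, where log2 fold changes were 0.30 to 0.38, and with libraries scaled by size alone (0.34). The sum over 10 oligodendrocyte markers also lay higher in SM, at 6066 to 6094 CPM against 5049 to 5643 CPM in NSM. Of the 10, 0 were called and 2, *Mobp* and *Mog*, had an adjusted p under 0.05. At an unadjusted p under 0.05 there were 7 of the 10 with limma, and 3992 of all 18593 tested genes. The part of oligodendrocyte RNA in the *Ptgds* result was not tested.

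Sums over other marker lists also lay higher in every SM than in every NSM library, and no listed marker was without reads in all libraries. For 11 markers of mural cells, the muscle cells and pericytes of vessels, they were 177 to 186 CPM in NSM, 191 to 212 in SM, 190.2 to 196 in NSF and 183 to 194 in SF, and *Tagln* rose in males (0.39, adjusted p = 0.186, limma). For 6 microglia markers the sums were 237 to 253 CPM in NSM, 265 to 293 in SM, 248 to 261 in NSF and 256 to 291 in SF, and *P2ry12* (0.39, adjusted p = 0.0245) and *Aif1* (0.38, adjusted p = 0.147, limma) rose. For 5 markers of border macrophages, which live in the meninges and around vessels, they were 11.8 to 12.8 CPM in NSM, 13.2 to 14.8 in SM, 13.7 to 15.9 in NSF and 12.1 to 14.2 in SF, and *Mrc1* (0.40, adjusted p = 0.161) and *F13a1* (0.52, adjusted p = 0.227, limma) rose. Of the 12 tested choroid plexus genes 2 fell in males, *Otx2* (-0.57, adjusted p = 0.137) and *Prlr* (-1.31, adjusted p = 0.107, limma), and the list had a median log2 fold change of -0.44. Sums over its 15 listed genes were 304 CPM in NSM1, 180 in NSM2 and 182 in NSM3, against 203, 205 and 184 CPM in SM. Only NSM1, the library with high *Ttr*, thus lay above SM in the sum. Among the calls of these named markers, that of *Prlr* was kept without each library in turn, and each of the others was lost without at least 1. All 5 tested red blood cell genes rose, as did 3 of 8 cortical genes. The part of these components in the male results was not tested.

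The proteoglycan genes had positive fold changes in males that did not pass the thresholds. *Dcn* had 3.67, 2.93 and 3.22 CPM in NSM and 3.98, 3.55 and 4.10 CPM in SM. The SM libraries were mostly above the NSM libraries, with an overlap by NSM1, and the log2 fold change was 0.24 ± 0.12 (SE, adjusted p = 0.262, limma). *Lum* had 0.424, 0.345 and 0.552 CPM in NSM and 0.579, 0.595 and 0.620 CPM in SM. These groups did not overlap, but they rest on 17 to 28 reads per library, and the log2 fold change of 0.46 had a standard error of 0.36 (95% limits -0.31 to 1.24). *Bgn* had 8.63, 6.85 and 6.55 CPM in NSM and 7.55, 7.83 and 9.15 CPM in SM, again with NSM1 inside the range of SM (log2 fold change 0.16 ± 0.11). Of the 10 genes, 2 had groups that did not overlap, *Col1a2* and *Lum*, against 23% of all tested genes.

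For the secreted factor and the enzymes and transporters other than *Ptgds*, male groups overlapped. *Igf2* had 27.4, 22.2 and 23.3 CPM in NSM and 25.8, 23.5 and 24.4 CPM in SM, the smallest difference of the 10 genes (log2 fold change 0.02 ± 0.09), and its 95% limits of -0.18 to 0.21 leave out a change by the fold threshold in either direction. *Slc6a13* lay between 2.11 and 2.74 CPM in NSM and 2.42 and 3.21 CPM in SM (log2 fold change 0.19 ± 0.16). *Aldh1a2* lay between 0.793 and 1.08 CPM in NSM and 0.829 and 1.28 CPM in SM (0.23 ± 0.21).

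**Figure D2:**
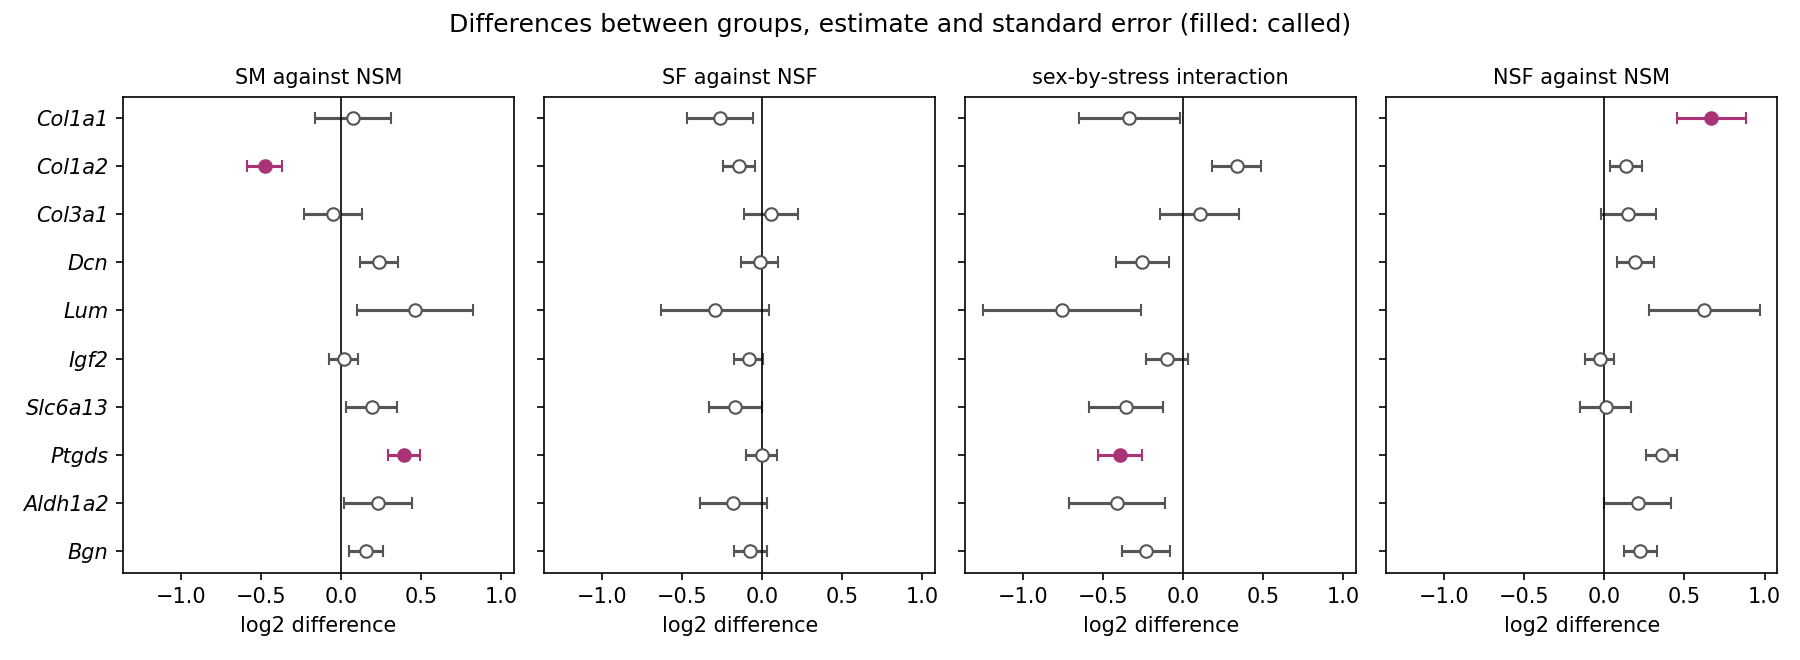
Log2 differences (x axis) of the 10 genes (y axis) in the 4 comparisons, with the estimate as a point, its standard error as a bar, and filled points for genes called by p and fold change. *Col1a2* (-0.48) and *Ptgds* (0.39) are filled in males, none in females, *Ptgds* (-0.40) in the interaction and *Col1a1* (0.67) between nonstressed females and males.

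In females, SF was compared with NSF, and none of the 10 genes was called (0 by limma, edgeR and DESeq2, also 0 at an unadjusted p under 0.05, and smallest adjusted p 0.948 with limma), where 1.73% of all tested genes were called. Log2 fold changes were negative for 9 genes, with a median of -0.11, and no gene had groups that did not overlap, against 11.3% of all tested genes. *Col1a2* had 10.9, 10.7 and 12.7 CPM in NSF and 9.17, 11.5 and 10.2 CPM in SF. The groups overlapped, with a log2 fold change of -0.14, a standard error of 0.10 and 95% limits of -0.36 to 0.07. *Ptgds* had 111, 99.5 and 105 CPM in NSF and 112, 105 and 98.9 CPM in SF. Both groups covered nearly the same range, and the log2 fold change of -0.003 had 95% limits of -0.21 to 0.21.

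Several female differences leaned on library SF1. It had the lowest SF level of *Col1a1* (1.86 CPM, against 3.17 and 3.28 CPM in SF2 and SF3), *Lum* (0.275, against 0.704 and 0.830 CPM), *Aldh1a2* (0.699, against 0.998 and 1.07 CPM) and *Igf2* (19.8, against 24.1 and 23.5 CPM). Without SF1 the log2 fold change of *Col1a1* moved from -0.26 to -0.01 and that of *Lum* from -0.29 to 0.18. *Dcn*, *Col3a1*, *Slc6a13* and *Bgn* had log2 fold changes between -0.17 and 0.05 in females.

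Whether the effects of SCVS differed between the sexes was tested as a sex-by-stress interaction, the log2 fold change in females minus that in males. Of the 10 genes, 1 was called, *Ptgds*, against 4.42% of all tested genes. None had an adjusted p under 0.05 (0 by limma, edgeR and DESeq2, smallest limma value 0.396). At an unadjusted p under 0.05 there were 2 of the 10 with limma, and 1775 of all 18593 tested genes. The interaction of *Ptgds* was -0.40 ± 0.14 (SE, adjusted p = 0.396, limma), and its call was lost without any 1 of NSM2, NSM3, SM1, SM3, NSF1 or SF3 (-0.30 to -0.38). That of *Col1a2* was 0.33 ± 0.15 (SE, adjusted p = 0.508, limma), under the fold threshold. The fall of *Col1a2* in males was therefore not shown to differ from the smaller difference in females once all genes were taken into account. The other 8 genes had interactions from -0.76 (*Lum*, standard error 0.49) to 0.10 (*Col3a1*, standard error 0.25).

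Between nonstressed females and males, NSF against NSM, 1 of the 10 genes was called, *Col1a1*, which was higher in females, and none had an adjusted p under 0.05 with limma or edgeR (0 of 10, against 3 at an unadjusted p under 0.05), whereas with DESeq2 1 had one, *Ptgds*. Of all tested genes 5.31% were called, 4.17% as higher and 1.15% as lower in females, and 2859 of the 18593 had an unadjusted p under 0.05 with limma. *Col1a1* had 2.73, 3.48 and 3.46 CPM in NSF, all above the 1.66 to 2.54 CPM of NSM. The mean was 3.22 ± 0.430 in NSF and 2.07 ± 0.446 CPM in NSM (SD, n = 3 libraries), a log2 difference of 0.67 ± 0.21 (SE, adjusted p = 0.163, limma). SF had 1.86, 3.17 and 3.28 CPM, of which 2 libraries were at the level of NSF and SF1 at that of the males.

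*Ptgds* was also higher in NSF than in NSM without overlap, with a log2 difference of 0.36 ± 0.10 (SE, adjusted p = 0.127, limma), just under the fold threshold. The oligodendrocyte sum was likewise higher in every NSF library, at 5748 to 6152 CPM, than in NSM, with 4 of the 10 markers at an unadjusted p under 0.05, and its part in this result was not tested either. This comparison shares the NSM libraries with that of SM against NSM, so the 2 values are not independent: mean CPM of *Ptgds* was 82.8 in NSM, 108 in SM, 105 in NSF and 105 in SF. The lower level was thus that of the nonstressed males, whereas for *Col1a2* the group apart was SM, with 7.48 CPM against 10.3 in NSM, 11.4 in NSF and 10.3 in SF. *Bgn* differed between NSF and NSM by 0.23 (standard error 0.10, adjusted p = 0.320, limma). Of the 10 genes, 9 had a positive difference (median 0.20, against 0.003 over all tested genes), and 2 did not overlap, against 19.5% of all tested genes.

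Whether the 10 genes varied as a unit was asked by correlating log2 CPM over the 12 libraries for all 45 pairs. Pearson's r was positive for 38 pairs and ranged from -0.29 to 0.81, with a median of 0.37. By permutation, 0 pairs had a Benjamini-Hochberg adjusted p under 0.05 with Pearson's r and 1 with Spearman's rho. This was *Dcn* with *Aldh1a2*, with r = 0.81 (adjusted permutation p = 0.0621) and rho = 0.88 (adjusted permutation p = 0.0108). Taken as deviations from the group means, their r was 0.86 (adjusted permutation p = 0.208), and without the 2 libraries farthest from the median of *Dcn* it was 0.86 as well. *Col1a1* and *Col1a2* had r = 0.64 (permutation p = 0.0246, adjusted p = 0.157, rho = 0.68). As deviations from the group means they had r = 0.76 (permutation p = 0.0193, adjusted p = 0.347). Libraries of a group with more of one chain thus tended to have more of the other, but this did not pass after adjustment. *Ptgds* and *Bgn* had r = 0.75 (permutation p = 0.00714, adjusted p = 0.157; rho = 0.40), which rested on NSM2 and NSM3, since r was -0.03 without them.

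Over the 12 libraries, *Col1a2* was the gene least like the rest. Its r with the mean of the other 9, each scaled over the libraries, was 0.09, and its r with *Slc6a13*, *Ptgds*, *Dcn* and *Igf2* was negative (-0.29, -0.22, -0.16 and -0.15). As deviations from the group means, the same relations had r = 0.18, -0.009, 0.27 and 0.10. The negative values thus did not hold within groups, where r with *Ptgds* was near 0 and the others were positive. *Aldh1a2* followed the mean of the others most closely, with r = 0.87, before *Dcn* (0.77), *Bgn* (0.68) and *Lum* (0.66). These values are given as a description without a p. Outside the list, the tested genes whose log2 CPM was most like the mean of the 10 were *Bsg* (r = 0.89 over 12 libraries), *A430107O13Rik* (0.88), *Cds1* (0.88), *Acta1* (0.87), *2010107G23Rik* (0.87), *Ccdc107* (0.85), *Ube2m* (0.85), *Tek* (0.84), *Hint2* (0.84) and *Vtn* (0.84).

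**Figure D3:**
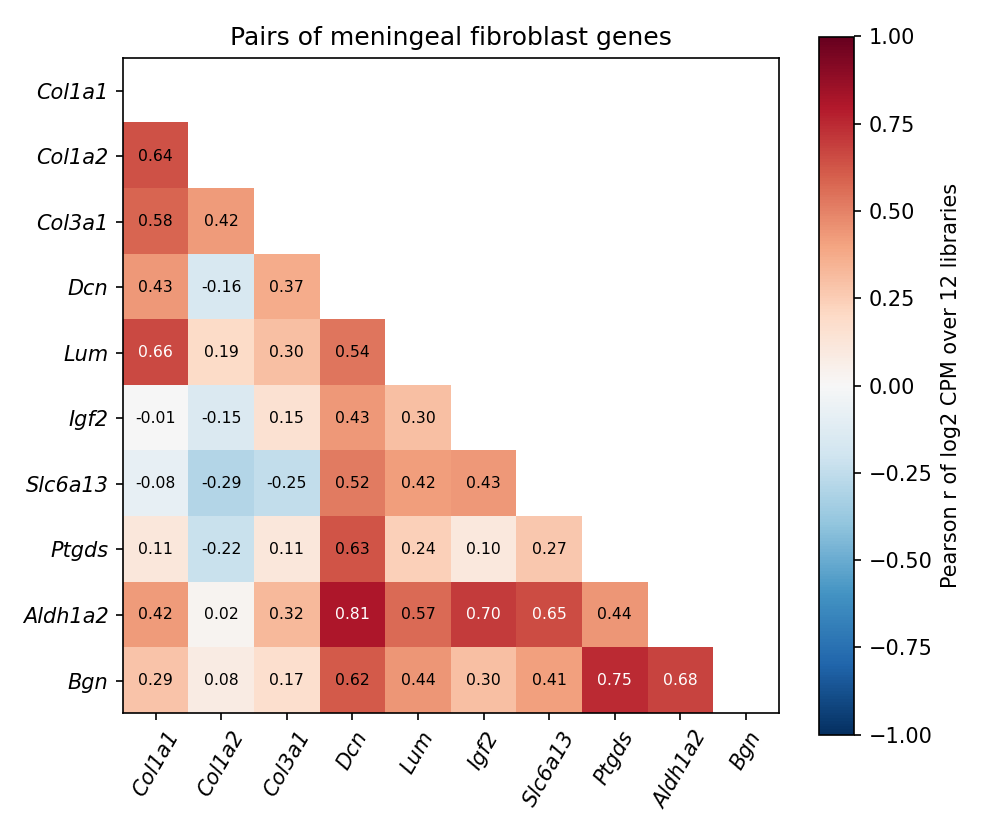
Pearson's r of log2 CPM over the 12 libraries for each pair of the 10 genes (both axes), with color from -1 (blue) to 1 (red). Values range from -0.29 (*Col1a2* with *Slc6a13*) to 0.81 (*Dcn* with *Aldh1a2*), and *Col1a2* is negative with 4 of the 9 others.

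Since *Col1a2* stood apart over the 12 libraries, though not within groups, it was compared with markers of other tissue components, 7 genes and 3 miRs in all. With *Cldn5*, a tight junction gene of brain endothelium, r was 0.85 (adjusted permutation p = 0.00430) and rho 0.94 (adjusted permutation p = 0.0002) over the 12 libraries. Without SM1 and SM2, the libraries farthest from the median of *Col1a2*, r was 0.71 (permutation p = 0.0213), and as deviations from the group means it was 0.68 (permutation p = 0.0455, adjusted p = 0.227). *Cldn5* had 12.7, 15.95 and 19.1 CPM in NSM and 9.72, 10.1 and 15.04 CPM in SM. It was thus also called as lower in SM, with a log2 fold change of -0.45 ± 0.18 (SE, adjusted p = 0.176, limma), although the groups overlapped and the call was lost without NSM2, NSM3, SM1 or SM2 (-0.30 to -0.42). It was the only 1 of 10 endothelial markers called there, their summed CPM overlapped (276 to 297 in NSM, 267 to 295 in SM), and the part of endothelial RNA in the *Col1a2* result was not tested.

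The other relations of *Col1a2* did not pass. Its r was -0.66 with *Alas2*, a red blood cell gene (adjusted permutation p = 0.0930), and -0.29 without SM1 and SM2, so that it rested on these libraries. It was -0.55 with *Drd2* of striatal neurons (adjusted permutation p = 0.197), 0.21 with *Mbp*, -0.20 with *Acta2*, -0.11 with *Slc17a7* and -0.07 with *Ttr* (each adjusted permutation p = 0.960).

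**Figure D4:**
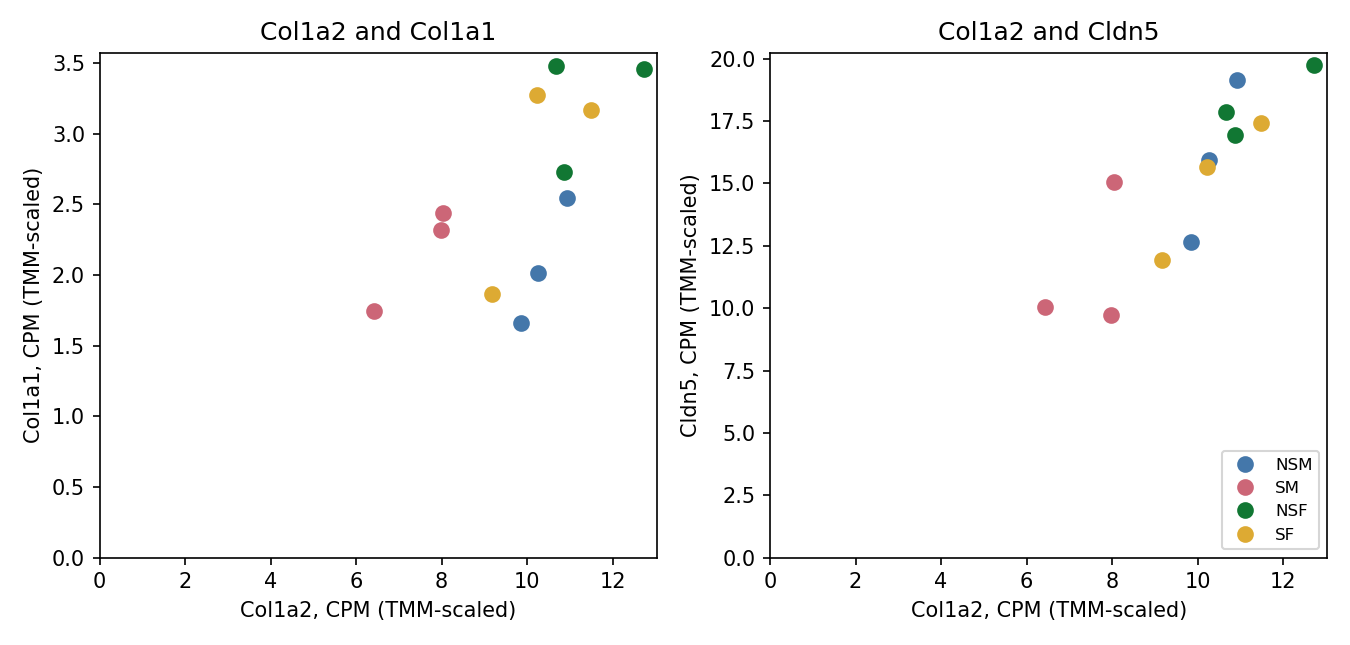
CPM of *Col1a2* (x axis) against *Col1a1* (left, y axis) and *Cldn5* (right, y axis) in the 12 libraries, colored by group, with both axes from 0. Libraries with less *Col1a2* tend to have less *Cldn5* (r = 0.85), though SM3 has 8.04 CPM of *Col1a2* at 15.04 CPM of *Cldn5*, above NSM1 (12.7 CPM). The SM libraries lie to the left of the male controls at similar *Col1a1* (1.74 to 2.44 against 1.66 to 2.54 CPM).

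Small RNA of the same dissections was also counted. The table's rows carry precursor names, whereas the study's methods name mature miR annotation, so whether a value holds reads of the 5p arm, the 3p arm or both is not settled. There were 5086554 to 13522287 reads per library. miR-199a, miR-199b and miR-214 are known from fibroblasts and mural cells, and their mature RefSeq sequences (GRCm38.p6) are shown with the seed, bases 2 to 8, in capitals, because the 3p sequence of the miR-199 precursors is the same and their reads cannot be told apart by it.
miR-199a-3p: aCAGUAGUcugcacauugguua
miR-199b-3p: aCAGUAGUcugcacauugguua
miR-199a-5p: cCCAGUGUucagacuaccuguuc
miR-214-3p: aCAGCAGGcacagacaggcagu
miR-199a-3p and miR-199b-3p share the seed CAGUAGU, which differs from the seed CAGCAGG of miR-214-3p and CCAGUGU of miR-199a-5p. All were rare: mir-199a-1 had 8 to 41 reads, mir-199a-2 22 to 77, mir-199b 23 to 57 and mir-214 8 to 40 reads per library. In CPM, mir-199a-2 had 4.46, 6.13 and 4.19 in NSM and 6.61, 4.64 and 5.25 in SM, and mir-214 had 1.93, 2.11 and 1.52 in NSM and 2.06, 2.94 and 2.31 in SM. The groups overlapped for both. *Col1a2* had r = -0.02 with mir-199a-2, 0.11 with mir-199b and -0.02 with mir-214 over the 12 libraries (each adjusted permutation p = 0.960). mir-140, known from cartilage, was far more abundant, at 1189 to 1357 CPM, mir-10b had 1.03 to 5.12 CPM, and mir-196a-1 was listed with 0 reads in all libraries.

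The pathways around the 10 genes were followed in 8 further lists with 139 genes, of which 125 were tested. In males, SM against NSM, 7 rose and 10 fell, 13.6% of those tested, and 7 had an adjusted p under 0.05. In females 0 rose and 2 fell (1.6%), the interaction was called for 10 (8%), and 10 genes were higher and 1 lower in NSF than in NSM (8.8%). The shares of all tested genes for these comparisons are those given above. Of the 17 calls in males, 7 were kept without each library in turn, those of *Eya2*, *Serpinh1*, *Tsku*, *Aldh1a1*, *Rbp4*, *Ptgis* and *Ptgs2*, and 10 were lost without at least 1 library. Both calls in females were lost in this way, as were 5 of the 10 in the interaction and 8 of the 11 between NSF and NSM, where those of *Zic1*, *Igfbp6* and *Aldh1a1* were kept.

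Of 26 tested genes that fold and modify collagen chains, 0 rose and 2 fell in males, where 2.36% of all tested genes rose and 4.08% fell. At an unadjusted p under 0.05 there were 7 of the 26 with limma, and 3992 of all 18593 tested genes. Those that fell were *Serpinh1*, the collagen chaperone of the endoplasmic reticulum that is also a heat shock gene, and *P4ha2*, a subunit of prolyl hydroxylase. *Serpinh1* had 12.9, 14.3 and 14.8 CPM in NSM and 9.36, 9.89 and 10.7 CPM in SM. All SM libraries were below all NSM libraries, and below all 6 female libraries, with a log2 fold change of -0.48 ± 0.12 (SE, adjusted p = 0.0466, limma). *P4ha2* had 15.1, 13.9 and 14.9 CPM in NSM and 11.1, 10.5 and 12.0 CPM in SM, again without overlap (log2 fold change -0.39 ± 0.09, adjusted p = 0.0413, limma), but it was also lower in females, at 11.8 to 13.8 CPM in NSF and 10.4 to 13.6 CPM in SF. *P4ha1* (-0.31, adjusted p = 0.0269) and *Plod3* (-0.30, adjusted p = 0.0418, limma), named here after their values were seen, also had an adjusted p under 0.05 but a fold under 1.3. The median log2 fold change of the list was -0.06. The call of *Serpinh1* was kept without each library in turn, and that of *P4ha2* was lost without NSM1, NSM3 or SM2 (log2 fold changes -0.36, -0.37 and -0.33) and with DESeq2 (-0.37).

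Of the 10 other collagen chains of fibroblasts, 0 rose and 1 fell in males, *Col6a1*, a chain of the beaded type VI collagen. *Col6a1* had 219, 228 and 304 CPM in NSM and 165, 155 and 243 CPM in SM. The other type VI chains of the list, *Col6a2* and *Col6a3*, named after their values were seen, had means of 16.5 and 1.90 CPM in NSM and were not called. Whether the *Col6a1* reads came from fibroblasts was not tested. Its SM and NSM libraries are compared next. The groups overlapped, with a log2 fold change of -0.43 ± 0.16 (SE, adjusted p = 0.140, limma), and the median over the 10 was -0.30 in males and -0.22 in females. The call was lost with DESeq2 (-0.40) and without NSM3, SM1 or SM2, where log2 fold changes were -0.27 to -0.35. Among 11 tested small leucine-rich proteoglycans other than the 3 above, *Tsku* (tsukushi) rose in males (0.58 ± 0.17, adjusted p = 0.0794, limma), and *Podn* (podocan) fell in females (-0.57 ± 0.23, adjusted p = 0.948, limma). Both were called higher in NSF than in NSM, *Podn* by 0.69 (adjusted p = 0.184) and *Tsku* by 0.40 (adjusted p = 0.272, limma).

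Retinoic acid genes beside *Aldh1a2* moved in both directions in males: of 13 tested, 2 rose and 2 fell. *Aldh1a1*, a related enzyme known in the brain from a part of the dopamine neurons, had 6.74, 7.28 and 5.80 CPM in NSM and 13.5, 12.3 and 11.03 CPM in SM. The lowest SM library was well above the highest NSM library, with a log2 fold change of 0.89 ± 0.12 (SE, adjusted p = 0.00372, limma). The NSF libraries, at 10.5, 10.9 and 12.2 CPM, were above NSM as well (0.77, adjusted p = 0.0192, limma), in a comparison that shares the NSM libraries. *Rbp4*, a carrier of retinol, had 6.85, 5.77 and 5.98 CPM in NSM and 8.61, 9.50 and 9.10 CPM in SM, also without overlap (0.55 ± 0.12, adjusted p = 0.0269, limma). *Stra6*, the receptor of this carrier, fell in males (-0.38 ± 0.17, adjusted p = 0.214) and in females (-0.46 ± 0.16, adjusted p = 0.948, limma), and *Cyp26b1*, which breaks down retinoic acid, fell in males (-0.94 ± 0.32, adjusted p = 0.125, limma).

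**Figure D5:**
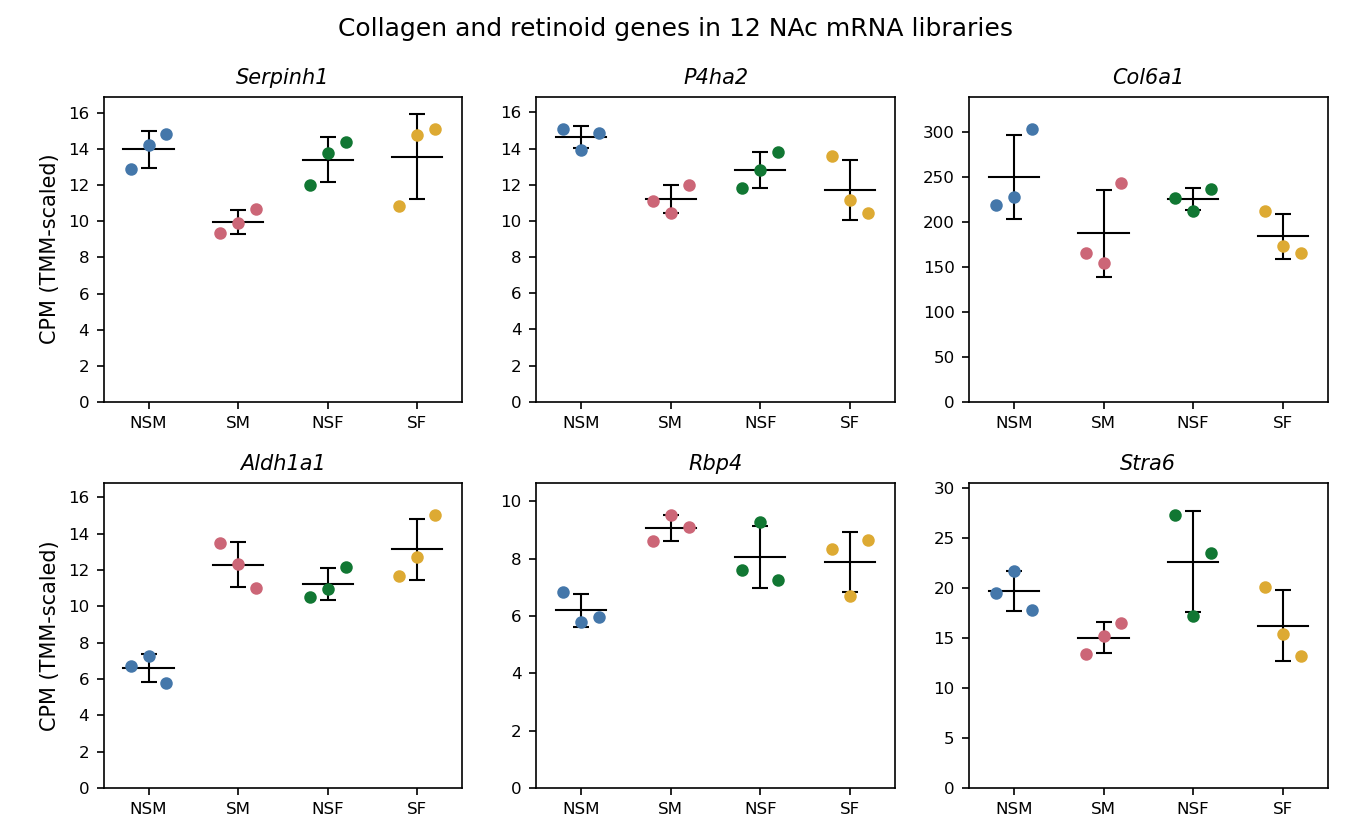
TMM-scaled CPM (y axis, from 0) of 3 collagen-related and 3 retinoid genes in the 4 groups (x axis), with each point a library, the line the group mean and the bar the SD. For *Serpinh1* the SM libraries (9.36 to 10.7 CPM) lie below the other 9 (10.9 to 15.1 CPM), and for *Aldh1a1* the NSM libraries (5.80 to 7.28 CPM) lie below the other 9 (10.5 to 15.01 CPM).

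Around *Igf2*, 1 of 11 tested ligands, receptors and binding proteins changed in males, *Igfbp6*, which binds IGF2 by preference and rose from 4.24 to 5.87 CPM (log2 fold change 0.47 ± 0.17, adjusted p = 0.138, limma). It was called higher in NSF than in NSM as well (0.61, adjusted p = 0.124, limma). Around *Ptgds*, 6 genes of prostaglandin synthesis and its receptors were tested, of which *Ptgis*, the prostacyclin synthase, rose (0.46 ± 0.16, adjusted p = 0.122) and *Ptgs2*, an inducible cyclooxygenase, fell in males (-0.53 ± 0.17, adjusted p = 0.0959, limma). Beside *Slc6a13*, *Slc6a12*, a betaine and GABA transporter with 3 to 21 reads per library, fell in males (-1.15 ± 0.39, adjusted p = 0.123, limma), and the osmolyte and taurine transporter *Slc6a6*, named after its values were seen, had 0.23 (adjusted p = 0.0496, limma) at a fold under 1.3.

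Of the 52 tested genes in the further list of meningeal fibroblast and arachnoid genes, 3 rose and 3 fell in males. None had an adjusted p under 0.05 with limma (0 of 52), whereas 1 had one by edgeR and 1 by DESeq2. At an unadjusted p under 0.05 there were 11 of the 52 with limma, and 3992 of all 18593 tested genes. *Slc22a6*, an organic anion transporter (log2 fold change 0.74), *Thbs2*, a matrix glycoprotein (0.51), and *Igfbp6* rose, and the transcriptional regulators *Osr1* (-1.55, 1 to 10 reads per library) and *Eya2* (-0.70) and the collagen gene *Col8a2* (-0.70) fell. In females 0 were called, and 3 had an unadjusted p under 0.05 with limma, as had 786 of all 18593 tested genes. Between NSF and NSM 6 were called higher and 1 lower, where 4.17% and 1.15% of all tested genes were. In that comparison 0 of the 52 had an adjusted p under 0.05 with limma or edgeR, and 2 with DESeq2. The higher ones were *Zic1* (0.63), *Nov* (2.04), *Thbs2* (0.50), *Spp1* (0.59), *Igfbp6* (0.61) and *Bmp5* (0.72), and *Gjb2* was lower (-0.38). *Nov* had 23.8, 3.99 and 35.7 CPM in NSF and 3.02, 2.52 and 5.15 CPM in NSM, so that 2 NSF libraries made its difference. NSF1 and NSF3 were also the libraries with the most RNA of cortical glutamatergic marker genes in NSF (511 and 661 CPM, against 356 CPM in NSF2). For *Slc17a7* alone they had 209 and 297 CPM, against 16.4 CPM in NSF2. The part of cortical RNA in the *Nov* result was not tested.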

How the data were processed

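Polyadenylated RNA was measured in 12 libraries and small RNA in 12 libraries of the same dissections. The authors used TopHat2 to align paired 50-base mRNA reads (build NCBIM37, Ensembl release 67), counted them per gene with HTSeq, and deposited raw counts for all 12 libraries. For small RNA they aligned trimmed reads of at least 16 bases to mm9 with Bowtie and deposited raw counts in rows with miR precursor names. Their methods name mature miR annotation, so what each row counted is not settled. Versions of these tools are not given in the sources used here. Samples were grouped by the sex, stress condition and replicate number in their labels, and none was left out.

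The study's filter was used, which keeps a gene with over 5 reads in 80% or more of the libraries of some group. Counts were scaled with TMM factors (edgeR 4.0.16) and fitted with voom and limma 3.58.1 in R 4.3.3, with one mean per group and no covariate, and p values were adjusted by Benjamini and Hochberg over all 18593 tested genes of a comparison. The study calls the 3 pools of a group independent biological replicates. Symbols, found for 17795 of the tested genes, and coordinates were looked up by Ensembl identifier in GENCODE's annotation for NCBIM37. Correlations used log2 CPM with a prior count of 2 and 100000 permutations over libraries (Python 3.11.15, numpy 2.4.6, scipy 1.17.1), and plots matplotlib 3.10.9. Within groups the 1296 possible orders were used, where the smallest p is 0.00077. The steps were tested on simulated data with known changes. No pair of libraries was identical.

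The 10 genes and all lists were chosen with earlier results of these data known. The text names all 10 genes, every gene of the related lists called in a comparison (at most 6 per list and comparison), and the 10 genes with a mean of at least 50 reads that were most like the 10 over the libraries. The same rule held for marker lists of other cell types, but of these only genes called in males, or discussed beside a result, are named. The interaction of 1 further gene is not reported here. Lists share some genes, such as *Igfbp6*. As alternatives served DESeq2 1.42.0, the quasi-likelihood test of edgeR, other scalings, filters and thresholds, fits to 6 libraries, replicate blocks, and fits that each left out 1 library. *Lum* and *Aldh1a2* rest on fewer than 70 reads per library, which limits their precision.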

Additional observations from a re-analysis of the deposited data

Results flagged for a closer look

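Of the 10 meningeal fibroblast genes, 2 were singled out because their sex-by-stress interaction had an unadjusted p under 0.05, as it had for 1775 of all 18593 tested genes. They were *Col1a2* with 0.33 (adjusted p = 0.508) and *Ptgds* with -0.40 on the log2 scale (adjusted p = 0.396, limma). Among the genes of the related lists, the same test singled out *Nov* (-2.81), *Eya2* (0.62), *Col8a2* (0.91), *Serpinh1* (0.49), *Podn* (-0.78), *Aldh1a1* (-0.67), *Rbp4* (-0.60), *Cyp26b1* (1.51), *Igf2bp3* (0.41) and *Ptgis* (-0.61), and, with a difference under 1.3-fold, *Slc22a8* (-0.34), *P4ha1* (0.26), *Plod3* (0.26), *Igf2r* (0.19), *Igfbp7* (-0.28), *Slc6a11* (0.29) and *Slc6a6* (-0.30). The smallest adjusted p of all these was 0.178 (*Aldh1a1*, limma), so that none passed after adjustment over all tested genes. With DESeq2 *Aldh1a1* (adjusted p = 0.0152), *Cyp26b1* (adjusted p = 0.0124) and *Slc6a6* (adjusted p = 0.0464) passed, and without NSF2 *Nov* did (adjusted p = 0.00585, limma). *Aldh1a1* had 6.61 ± 0.748 CPM in NSM, 12.3 ± 1.24 in SM, 11.2 ± 0.876 in NSF and 13.1 ± 1.70 in SF (SD, n = 3 libraries), and *Serpinh1* 14.0 ± 1.00, 9.98 ± 0.662, 13.4 ± 1.24 and 13.6 ± 2.37 CPM.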

How the results depend on the processing

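The signs of the log2 fold changes of *Col1a2* and *Ptgds* in males and of *Col1a1* between NSF and NSM held under every alternative. Of the 10 genes, 2 were called in males, but 1 with libraries scaled by size alone and 1 to 2 with 1 library left out. The interaction was called for 1 gene, but for 0 with scaling by size alone or at an adjusted p under 0.05 and 2 at an unadjusted p under 0.05, and for 0 to 2 with 1 library left out. Between NSF and NSM 1 gene was called, 2 in a fit to the 6 libraries, 0 at an adjusted and 3 at an unadjusted p under 0.05, and 1 to 3 with 1 library left out. Between 0 and 1 pairs of genes passed by Pearson's r without 1 library and 1 with scaling by size alone, and of the relations of *Col1a2* 0 passed as deviations from the group means and 1 to 2 without 1 library.

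Small differences changed sign. With scaling by size alone these were *Igf2* in males (-0.035) and *Slc6a13* between NSF and NSM (-0.010), and for *Ptgds* in females DESeq2, its size factors and the filter for 1 read gave 0.0033, 0.0029 and 0.0025. With 1 library left out, log2 fold changes in males ranged from -0.078 to 0.24 for *Col1a1*, -0.15 to 0.040 for *Col3a1* and -0.033 to 0.12 for *Igf2*. In females they ranged from -0.054 to 0.22 for *Col3a1*, -0.10 to 0.051 for *Dcn*, -0.58 to 0.18 for *Lum*, -0.15 to 0.0017 for *Igf2*, -0.049 to 0.043 for *Ptgds* and -0.29 to 0.0015 for *Aldh1a2*. The interaction of *Col3a1* ranged from -0.0057 to 0.27, and between NSF and NSM *Igf2* ranged from -0.092 to 0.057 and *Slc6a13* from -0.067 to 0.13. As deviations from the group means, r of *Col1a2* was 0.21 with *Slc17a7*, 0.30 with mir-199a-2, -0.19 with mir-199b and 0.36 with mir-214, and without 1 library it ranged from -0.20 to 0.065 with *Ttr*, -0.39 to 0.074 with *Slc17a7*, -0.33 to 0.18 with mir-199a-2, -0.036 to 0.21 with mir-199b and -0.22 to 0.31 with mir-214. The cause of these changes was not tested.

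Same-numbered libraries of the 2 male groups had deviations from the group means with correlations of 0.0297, 0.00585 and 0.345 and those of the female groups 0.110, 0.0880 and 0.127. Of the 12 libraries, 7 correlated best with their own number, and the count for unlinked numbers was not computed. Whether the numbers link libraries is therefore not settled. The main fit did not take them as pairs. With a replicate block shared by all groups 2 genes were again called in males, and *Col1a2* had -0.48 (adjusted p = 0.0228) and *Ptgds* 0.39 (adjusted p = 0.00964, limma), while all genes with an adjusted p under 0.05 in males went from 618 to 998, or to 1727 with a block per sex. With the latter the interactions of *Aldh1a1* (adjusted p = 0.0354) and *Nov* (adjusted p = 0.0400, limma) passed. That count was 354 in a fit to the 6 libraries, 380 with the filter for 1 read, 1180 with DESeq2 and 79 (without SM2) to 972 (without SM3) with 1 library left out.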
